A study of Mus musculus with 4 samples.

Results

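Among the barcodes of 2 thymus libraries, one wild-type (WT) and one with a T cell-specific deletion of *Eif4g2* (*Eif4g2* cKO), 681 of 10349 carried at least 10000 UMIs (unique molecular identifiers, each counting 1 captured RNA molecule) and fewer than 10 UMIs of *Cd74*, *H2-Aa*, *H2-Ab1*, *Lyz2* and *C1qa* together. These large cells were chosen by their total UMIs and by the low level of those 5 antigen-presenting and myeloid genes. Cell size itself was not measured, and "large" refers to RNA content throughout. There were 262 large cells among 6014 WT barcodes and 419 among 4335 *Eif4g2* cKO barcodes.

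The WT library came from the thymus of a 5-week-old mouse homozygous for the floxed *Eif4g2* allele without Cre. The *Eif4g2* cKO library came from a mouse of the same age with the same floxed alleles plus a *Cd4*-Cre transgene, whose promoter becomes active only as thymocytes reach the double-positive stage. Each genotype had 1 mouse and 1 library of unsorted, untreated thymus cells, placed in the same batch by the labels. *Eif4g2* encodes a translation initiation factor related to eIF4G1 that lacks the cap-binding part. With 1 library per genotype no test between genotypes was possible, and the intervals below are exact 95% intervals that cover counting error only. The limit given beside a count of 0 is not such an interval but 3 counts divided by the number of cells.

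Developing thymocytes pass through short bursts of growth and division. After a productive β-chain rearrangement and signalling through the pre-TCR, CD4- CD8- double-negative cells become large blasts, start to express CD8, pass an immature CD8 single-positive step and become cycling CD4+ CD8+ double-positive cells, which then turn small and quiescent and rearrange the α-chain with the RAG recombinase. Blast growth rests on ribosome production, nucleotide and polyamine synthesis, mitochondrial protein import and glycolysis, a programme in which the transcription factor MYC has a well-known role.

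Before any comparison, 2 features of the WT library bear on the large cells. Of the 262 WT members, 7 had at least 1% haemoglobin UMIs, 6 of them over 70%, with a range from 8.98% to 94.5% and between 10184 and 16584 UMIs. The next WT member had 0.0587%. None of the 419 *Eif4g2* cKO members reached 1%, which allows a share of up to 0.716%. Outside those 7 barcodes, summed *Hbb-bs* was still 81.3 CPM (UMIs of a gene per 1000000 UMIs) in the WT large cells against 3.30 in the *Eif4g2* cKO large cells. The labels call both mice female, yet *Eif2s3y*, *Uty* and *Kdm5d* of the Y chromosome had 1048, 1065 and 429 UMIs in the WT library, whereas the *Eif4g2* cKO library held 0, 1 and 0. The WT library therefore goes against its label, and sex and genotype cannot be told apart here. *Ddx3y*, which is close in sequence to its X-linked copy, had 1427 and 510 UMIs. No barcode sequences were compared between libraries, because barcode names are running numbers.

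Large cells made up 4.36% of WT barcodes (exact binomial interval 3.85 to 4.90%) and 9.67% of *Eif4g2* cKO barcodes (8.802 to 10.6%). They held 24.3% of all UMIs of the WT library and 38.6% of those of the *Eif4g2* cKO library. The share was larger in the *Eif4g2* cKO library at every UMI threshold tried, from 6.47% against 12.9% at 8000 UMIs to 2.14% against 4.64% at 15000 UMIs. The libraries held nearly the same number of UMIs, 18355050 and 18056277, spread over different numbers of barcodes, and a barcode held 1732.5 UMIs (WT) and 2140 UMIs (*Eif4g2* cKO) at the median. A threshold of 4 times each library's own median moved the shares to 7.98% and 11.9%. The part of depth in the difference was not tested.

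The members of the 2 libraries had nearly the same depth, with medians of 14833 UMIs in WT (quartiles 11893 and 20410) and 14754 in *Eif4g2* cKO (12114 and 19297). The deepest cells reached 50432 and 44595 UMIs, and 69 WT and 92 *Eif4g2* cKO members had at least 20000. The UMI threshold cut through a continuous tail. Within 500 UMIs of it, 24 WT barcodes lay below and 16 members above, and 29 and 27 in *Eif4g2* cKO, the nearest being 9961 and 10043 UMIs in WT and 9929 and 10009 in *Eif4g2* cKO. The limit on the 5 antigen-presenting genes removed 2 WT barcodes, with 669 and 879 UMIs of these genes, whereas the highest members had 5 in WT and 3 in *Eif4g2* cKO. Nothing lay near that limit.

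**Figure D1:**
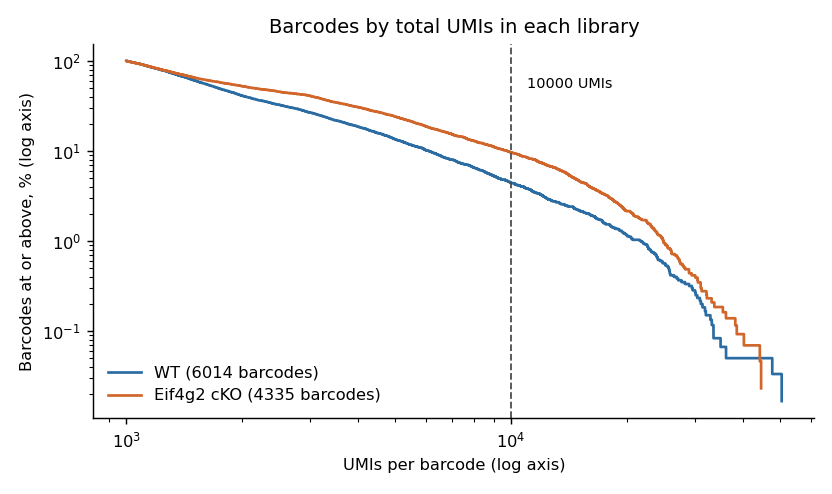
Share of barcodes (%, log axis) at or above each number of UMIs per barcode (log axis) in the WT and Eif4g2 cKO libraries. Both curves fall smoothly through the dashed line at 10000 UMIs, where 4.36% of WT and 9.67% of Eif4g2 cKO barcodes remained once the limit on antigen-presenting genes was applied.

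Growth genes were among those that stood higher in the large cells. The 6 genes given to mark them were *Srm* (spermidine synthase, chromosome 4, 148591503 to 148594993), *Hspd1* (the mitochondrial chaperonin HSP60, chromosome 1, 55077835 to 55088243), *Shmt2* (mitochondrial serine hydroxymethyltransferase, chromosome 10, 127517123 to 127522444), *Fabp5* (a fatty acid-binding protein, chromosome 3, 10012548 to 10016607), *Dctpp1* (which hydrolyses dCTP, chromosome 7, 127256959 to 127260709) and *Gnl3* (nucleostemin, a nucleolar GTPase, chromosome 14, 31012433 to 31019152), with coordinates from GENCODE M21 on GRCm38. Since the cells were picked by their RNA content and the genes were given with them, their levels are a description.

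*Srm* stood at 152 CPM in the WT and at 217 CPM in the *Eif4g2* cKO large cells, against 34.7 and 40.2 CPM in the ordinary-size cells, that is the barcodes under 10000 UMIs with the same limit on antigen-presenting genes. *Hspd1* was at 294 and 313 CPM against 77.6 and 105 CPM. *Dctpp1*, the most abundant of the 6, was at 399 and 436 CPM against 96.2 and 163 CPM. All 6 were at least 2.67 times as high in large as in ordinary-size cells in both libraries, and *Srm* had the widest gaps, of 4.36 and 5.41 times. *Fabp5* (227 and 353 CPM) and *Srm* were the markers that differed most between the libraries, while *Shmt2* (109 and 121 CPM) and *Gnl3* (124 and 103 CPM) lay closer together.

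The markers rose in level with the UMI class, and in *Eif4g2* cKO the widest step of *Srm* lay at the threshold. *Srm* went from 13.4 CPM in WT barcodes of 1000 to 2000 UMIs through 29.7 and 70.2 CPM at 2000 to 5000 and 5000 to 10000 UMIs to 109 CPM in members under 20000 UMIs and 214 CPM in members above. In *Eif4g2* cKO the same classes held 15.5, 35.8, 60.5, 184 and 281 CPM. *Myc* ran from 12.2 to 91.5 CPM in WT and from 11.5 to 69.4 CPM in *Eif4g2* cKO between the lowest and the highest class. Thinned to 1000 UMIs per cell, at least 1 of the 6 markers was seen in 64.5% of WT and 70.4% of *Eif4g2* cKO members, and in 18.5% and 26.5% of ordinary-size cells. Thinned to 10000 UMIs, 4 or more of the 6 were seen in 67.1% of 255 WT members without the haemoglobin-rich barcodes and in 74.2% of the 419 *Eif4g2* cKO members.

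**Figure D2:**
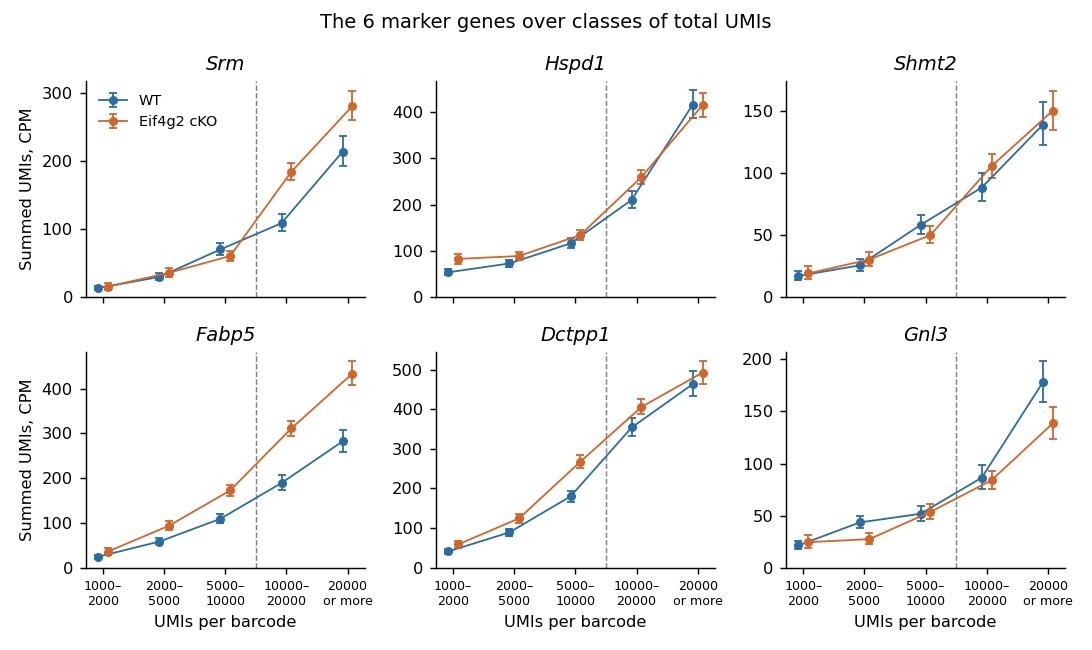
Summed level (CPM) of each of the 6 marker genes over 5 classes of UMIs per barcode, for WT and Eif4g2 cKO, with exact Poisson 95% intervals as bars. The dashed line is the threshold of 10000 UMIs; each gene is higher on its right, as for Srm, from 70.2 to 109 CPM in WT and from 60.5 to 184 CPM in Eif4g2 cKO.

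Whole groups of growth genes shared this pattern. Of 9402 genes that reached 50 UMIs in both libraries, with large and ordinary-size cells combined, 634 (6.74%) were higher in large cells by more than 0.5 on the log2 scale in both libraries and 3947 (42.0%) lower, and the median gene was lower by 0.49 in both. Ribosomal protein mRNAs accounted for 32.5% of UMIs in WT and 37.9% in *Eif4g2* cKO large cells, against 22.2% and 28.1% in ordinary-size cells. A larger share for them leaves a smaller one for the other genes together, and its part in the lower median was not tested. Of 39 ribosome biogenesis genes (nucleolar proteins and assembly factors), 27 were higher and 0 lower. Together they made up 6569 CPM of the WT and 6878 CPM of the *Eif4g2* cKO large cells, against 3083 and 3524 CPM in ordinary-size cells. Within this list *Npm1* (nucleophosmin) had 1098 and 1647 CPM in the large cells and *Ncl* (nucleolin) 1317 and 1032 CPM, against 432 to 669 CPM for both genes in ordinary-size cells.

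In polyamine, nucleotide and one-carbon metabolism 22 of 26 genes were higher and 0 lower. *Tyms* (thymidylate synthase) stood at 262 CPM in the WT and 317 CPM in the *Eif4g2* cKO large cells against 113 and 213 CPM in ordinary-size cells. *Phgdh*, the entry enzyme of serine synthesis, stood at 286 and 267 CPM against 101 and 126 CPM. *Cad*, which starts pyrimidine synthesis, was among the 10 genes with the highest ratios, at 37.1 and 40.5 CPM against 7.94 and 10.1 CPM. The other genes at that end were *Srm*, *Shmt1*, *Ybx3*, *Lap3*, *Smyd2*, *Rangrf*, *Dnph1*, *1500009L16Rik* and *Gzma*.

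Chaperones and mitochondrial import genes followed, with 11 of 17 mitochondrial and 8 of 15 cytosolic members higher and none lower. *Hspe1*, the partner of HSP60, had 702 and 793 CPM in the large cells against 261 and 325 CPM. *Hsp90ab1*, a cytosolic HSP90, had 3438 and 2706 CPM against 1361 and 1376 CPM. In lipid synthesis and binding 6 of 10 genes were higher, in glycolysis 5 of 12, and in translation initiation 6 of 24, with 1 lower. The nutrient transporters were mixed, with 4 of 11 higher and 2 lower. Among 8 genes of the Myc network with enough UMIs, *Myc* was the 1 counted as higher (67.4 and 54.7 CPM against 22.7 and 22.1 CPM) and 5 were lower, among them *Mxd4*, an antagonist of MYC (44.9 and 33.3 CPM against 257 and 145 CPM).

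MYC and related factors bind the E-box CACGTG, a palindrome that reads the same on both strands. The promoters of the growth genes were searched for these 6 letters in RefSeq promoter windows on GRCm38.p6, from 250 bases before to 50 bases after each start. The motif was found in 9 of 34 matched ribosome biogenesis genes (26.5%), in 7 of 16 mitochondrial chaperone and import genes (43.8%) and in 5 of 23 matched genes of polyamine, nucleotide and one-carbon metabolism (21.7%), but in 1 of 11 matched cytosolic chaperone (9.09%) and 1 of 12 glycolysis genes (8.33%). The share was 8.09% of all 27025 genes with a promoter window and 12.5% of 6955 matched genes with enough UMIs in the large cells. It was found in 0 of 22 mitosis, 0 of 12 quiescence and 2 of 24 DNA replication genes. Of the 6 markers 4 had a window, and 1 of these, that of *Hspd1*, held the motif. A match describes the letters and is not a binding site. Of the growth genes whose match lay upstream of the start, 6 windows of 24 bases are shown 5′ to 3′ on the gene's strand, to let the shared letters (capitals) be seen beside their different surroundings.
Hspd1, chr1:55088309-55088332, minus strand: cggctgggaCACGTGaaaaggccg
Impdh2, chr9:108560317-108560340, plus strand: ctcgataagCACGTGgttacccag
Tyms, chr5:30073672-30073695, minus strand: cacttctgtCACGTGggggcgggg
Paics, chr5:76951090-76951113, plus strand: ctcggaaagCACGTGgagggacct
Nop2, chr6:125131814-125131837, plus strand: tccctggatCACGTGtgttccggt
Timm9, chr12:71136719-71136742, minus strand: acattttccCACGTGgtaacgaat
In the large cells of WT and *Eif4g2* cKO these genes stood at 294 and 313 CPM (*Hspd1*), 225 and 243 CPM (*Impdh2*, guanine nucleotide synthesis), 262 and 317 CPM (*Tyms*), 135 and 148 CPM (*Paics*, purine synthesis), 25.6 and 27.3 CPM (*Nop2*, rRNA methylation) and 59.97 and 70.5 CPM (*Timm9*, mitochondrial import). All 6 were higher than in the ordinary-size cells of the same library, which did not hold for every growth gene with an upstream match. *Rrn3* stood at 16.4 CPM in WT large cells against 21.6 CPM in ordinary-size cells. In *Eif4g2* cKO it stood at 16.2 against 13.6 CPM. Positions before the start are counted from RefSeq starts, and the GENCODE M21 start of *Impdh2* lies before its window. *Paics*, *Nop2*, *Timm9* and *Rrn3* are named for their motif, after their values were seen.

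The ordinary-size cells mix resting and dividing cells, so the large cells were also set beside 3 classes of them. Mitotic cells were the top 5% of ordinary-size cells by the summed share of 25 mitosis genes, S-phase cells the top 10% of the rest by 30 DNA replication genes, and resting cells those at or below the median of both lists together in the remainder. Against the 363 WT and 551 *Eif4g2* cKO ordinary-size S-phase cells, the highest of these classes for each of the 6 markers, the large cells still had 1.96 (WT) and 3.22 (*Eif4g2* cKO) times the *Srm* level, 2.16 and 2.05 times that of *Hspd1*, and 1.34 and 1.26 times that of *Dctpp1*. Ribosome biogenesis was 1.51 and 1.58 times and mitochondrial import 1.39 and 1.43 times as high. Polyamine, nucleotide and one-carbon metabolism (1.053 and 1.09 times) and glycolysis (1.07 in both) lay close to the S-phase cells. Against S-phase cells 3.06% of genes were higher in both libraries and 10.4% lower, in place of 6.74% and 42.0%.

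**Figure D3:**
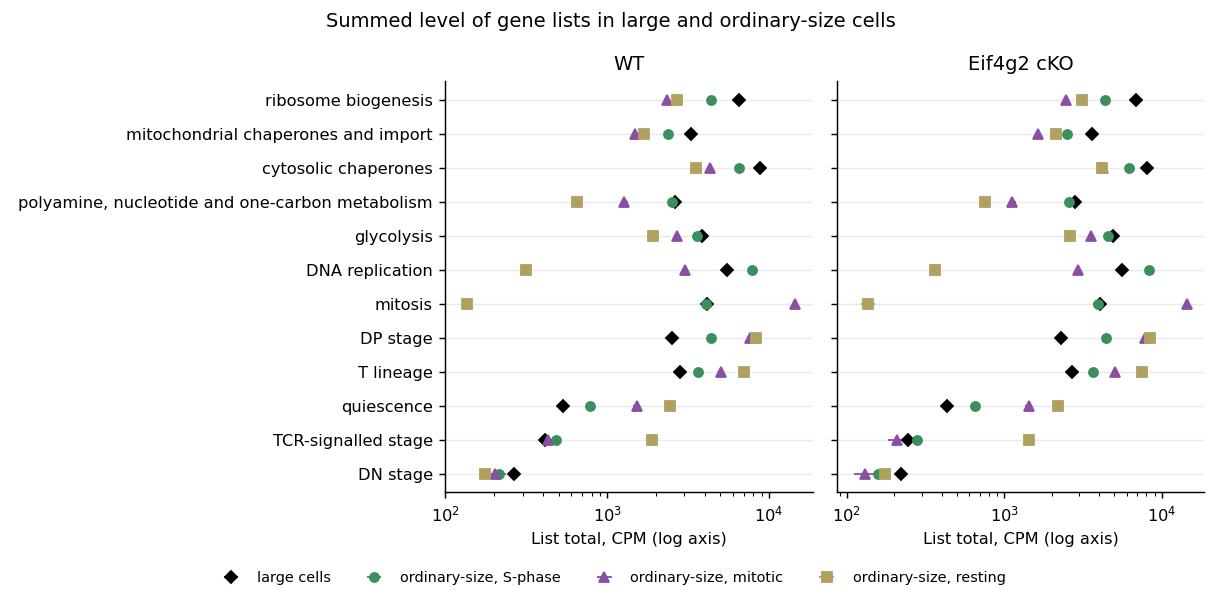
Summed level (CPM, log axis) of 12 gene lists in large cells and in 3 classes of ordinary-size cells, for each library, with exact Poisson 95% intervals (mostly narrower than the symbols). Large cells (black) are farthest right for ribosome biogenesis, 6569 (WT) and 6878 CPM (Eif4g2 cKO), and farthest left for DP stage, T lineage and quiescence.

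Most large cells carried DNA replication transcripts. With the limits set on the ordinary-size cells, 172 of 262 WT members (65.6%, interval 59.6 to 71.4%) and 288 of 419 *Eif4g2* cKO members (68.7%, 64.1 to 73.1%) fell in the S-phase class. A further 16 WT (6.11%) and 17 *Eif4g2* cKO members (4.06%) fell in the mitotic class, 63 and 112 lay between the classes, and 11 and 2 in the resting class. The shares of ordinary-size cells in the S-phase class were 6.36% and 14.1%. Phase is a range here and not a type, as 72 WT and 120 *Eif4g2* cKO members lay within 20% of the S-phase limit. With every cell thinned to 1000 UMIs, 57.3% of WT and 58.9% of *Eif4g2* cKO members had at least 5 UMIs of the DNA replication list, against 7.01% and 14.3% of ordinary-size cells.

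The DNA replication level itself was not the highest of all classes. It summed to 5512 CPM in WT large cells and 5603 CPM in *Eif4g2* cKO, above all ordinary-size cells (2056 and 3354 CPM) and below the S-phase class that was chosen for it (7895 and 8272 CPM). *Dut* (dUTPase) at 1183 and 1394 CPM, *Pcna* (the sliding clamp) at 427 and 544 CPM and *Mcm7* (replicative helicase) at 309 and 291 CPM were among its most abundant genes. Mitosis genes summed to 4150 and 4031 CPM, against 14516 and 14403 CPM in mitotic ordinary-size cells. *Top2a* had 532 and 456 CPM and *Cdk1* 252 and 322 CPM in the large cells.

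Growth and mitosis lay at opposite ends among the members. In the mitotic members ribosome biogenesis summed to 2818 CPM (WT) and 3070 CPM (*Eif4g2* cKO), against 7025 and 7183 CPM in the S-phase members, and *Srm* to 14.4 and 27.7 CPM against 160 and 234 CPM. With each member thinned to 10000 UMIs, the rank correlation of ribosome biogenesis with mitosis UMIs across cells was −0.45 in 255 WT and −0.49 in 419 *Eif4g2* cKO members. With DNA replication it was 0.11 and 0.08, with mitochondrial import 0.78 and 0.85, with cytosolic chaperones 0.77 and 0.73, and with the UMIs of the cell before thinning 0.57 and 0.44. Points share their library, and lists share 1 total of UMIs in each cell. The middle 80% of members ran from 29.0 to 97.0 ribosome biogenesis UMIs in WT and from 31.0 to 98.0 in *Eif4g2* cKO, around medians of 61.0 and 63.0.

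**Figure D4:**
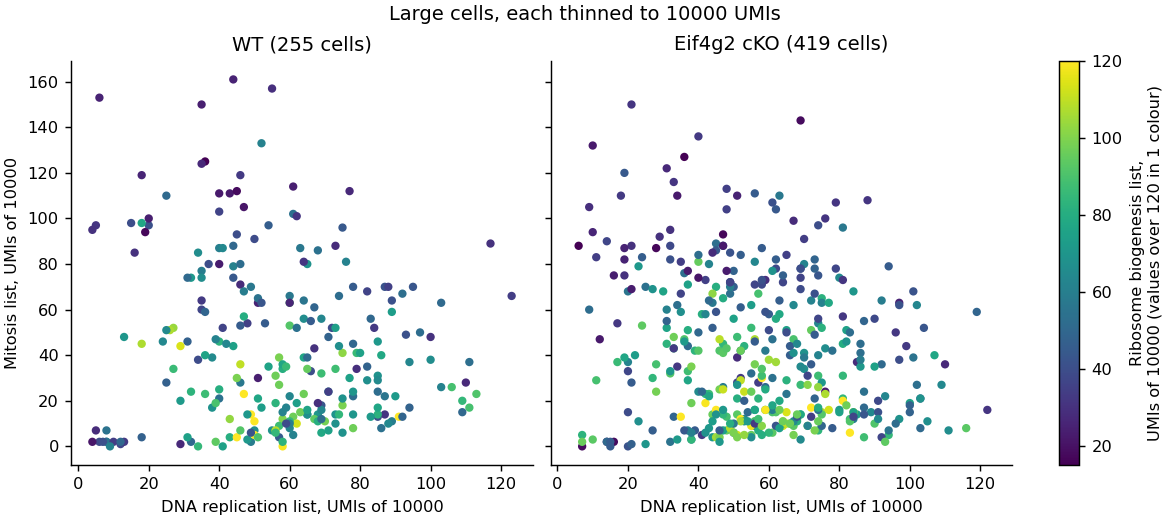
Each point is 1 large cell thinned to 10000 UMIs, by its UMIs of the DNA replication list (x) and the mitosis list (y), coloured by its ribosome biogenesis UMIs; the 7 haemoglobin-rich WT barcodes are left out. The cells rich in ribosome biogenesis UMIs (light) lie low on the mitosis axis in both libraries, with rank correlations of −0.45 in WT and −0.49 in Eif4g2 cKO.

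The large cells carried T lineage genes, at lower levels than ordinary-size cells, and more *Cd8* than *Cd4* RNA. The T lineage list stood at 2818 (WT) and 2692 CPM (*Eif4g2* cKO) in members, against 6291 and 5856 CPM in ordinary-size cells. As a background it summed to 870 CPM in 32 antigen-presenting WT barcodes (at least 50 UMIs of the 5 genes) and 361 CPM in 44 WT barcodes of over 50% haemoglobin UMIs. In the 6 antigen-presenting *Eif4g2* cKO barcodes it was higher, at 1617 CPM (1138 to 2229 CPM), and still below the *Eif4g2* cKO members. With every cell thinned to 1000 UMIs, *Cd3d*, *Cd3e* or *Cd3g*, which encode CD3 chains, were seen in 82.1% of WT and 85.0% of *Eif4g2* cKO members. They were seen in 95.7% and 96.7% of ordinary-size cells and in 31.2% of the antigen-presenting and 11 of the 44 haemoglobin-rich WT barcodes. Of the 6 antigen-presenting *Eif4g2* cKO barcodes 4 showed them (22.3 to 95.7%). *Cd8b1* stood at 600 and 643 CPM and *Cd8a* at 339 and 368 CPM, whereas *Cd4* stood at 102 and 105 CPM. In ordinary-size cells the same genes stood at 2111 and 2443, 913 and 1089, and 710 and 735 CPM. In the S-phase class of ordinary size *Cd8a* stood at 722 and 853 CPM and *Cd4* at 205 and 251 CPM. Along the UMI classes *Cd4* went from 1180 to 58.4 CPM in WT and from 1474 to 58.6 CPM in *Eif4g2* cKO. *Ptcra*, the pre-TCR α-chain, was at 62.2 and 66.3 CPM in large cells, between the 51.2 and 53.1 CPM of all ordinary-size cells and the 79.9 and 68.7 CPM of their S-phase class.

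At 10000 UMIs per cell, UMIs of both *Cd4* and *Cd8a* or *Cd8b1* were seen in 51.9% of WT and 52.5% of *Eif4g2* cKO members, UMIs of *Cd8* genes alone in 43.5% and 43.4%, of *Cd4* alone in 1.91% and 1.19%, and neither in 2.67% and 2.86%. With 2 UMIs required at full depth, *Cd8* alone was the most common pattern, at 57.6% and 56.8%, with both at 34.7% and 37.9%. These shares were close in the 2 libraries, whereas at 1000 UMIs per cell *Cd8* alone was seen in 55.0% of WT and 47.3% of *Eif4g2* cKO members and neither coreceptor in 34.7% and 41.8%. *Cd4* was not above its level in the antigen-presenting barcodes. At 1000 UMIs it was seen in 10.3% of WT and 11.0% of *Eif4g2* cKO members and in 3 of the 32 antigen-presenting WT barcodes (9.38%). At full depth it made up 102 and 105 CPM in members and 115 CPM (64.6 to 190 CPM) in those barcodes. That background rests on 15 *Cd4* UMIs, and the haemoglobin-rich WT barcodes held less, 37.2 CPM (17.9 to 68.5 CPM), below the WT members. The 2 backgrounds thus differ, and which one applies was not determined. Over all members the *Cd4* UMIs are not read here as expression or as its absence. The 6 antigen-presenting *Eif4g2* cKO barcodes held 175 CPM (47.6 to 448 CPM). Mitotic members alone had more *Cd4* than all members, 364 CPM (287 to 455 CPM) in WT and 310 CPM (240 to 393 CPM) in *Eif4g2* cKO. *Cd8a* or *Cd8b1* was seen at 1000 UMIs in 61.1% and 55.8% of members, in 31.2% of the antigen-presenting WT barcodes and in 2 of the 6 *Eif4g2* cKO ones. By level these genes made up 939 CPM in WT members, above the antigen-presenting WT barcodes (531 CPM, 413 to 672 CPM). In *Eif4g2* cKO members they made up 1010 CPM, not above the antigen-presenting *Eif4g2* cKO barcodes (1224 CPM, 813 to 1768 CPM). *Ptcra* was seen in 35.1% of WT and 42.5% of *Eif4g2* cKO members at 10000 UMIs, *Il2ra* (CD25, of double-negative cells) in 11.1% and 11.9% and *Rag1* in 54.6% and 62.3%. No background barcodes were counted at that depth. By level, *Ptcra* and *Il2ra* had 0 UMIs in the antigen-presenting WT barcodes (0 to 28.4 CPM). *Ptcra* stood above that range in members, at 62.2 and 66.3 CPM. *Il2ra* stood at 28.5 (WT) and 22.1 CPM (*Eif4g2* cKO) in members, which does not place it above these barcodes. *Rag1* had 53.9 CPM in them (21.7 to 111 CPM) against 89.8 (WT) and 122 CPM (*Eif4g2* cKO) in members. In the 6 antigen-presenting *Eif4g2* cKO barcodes *Rag1* had 262 CPM (96.2 to 571 CPM), and the range for *Ptcra* and *Il2ra* was 0 to 161 CPM.

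Set against ordinary-size cells at 1000 UMIs per cell, *Rag1* was seen in 6.49% of WT and 11.5% of *Eif4g2* cKO members and in 38.4% and 38.5% of ordinary-size cells, and in 0 of the 32 antigen-presenting WT barcodes, which allows a share of up to 9.38%. Both coreceptors were seen in 6.11% and 8.59% of members and in 46.1% and 50.1% of ordinary-size cells. The S-phase class of ordinary size lay between these, at 19.3% and 21.1% for both coreceptors. All 9 double-positive-stage genes were lower in large cells. *Rag2*, the other RAG subunit, was higher in *Eif4g2* cKO (42.1 CPM, WT 24.03 CPM) but in both below the ordinary-size cells (81.4 CPM in WT, 97.8 in *Eif4g2* cKO), and *Dntt*, which adds bases at V(D)J junctions, stood at 639 and 682 CPM against 936 and 1123 CPM. Of 8 mature genes 6 were lower and 0 higher, and of 12 TCR-signalled genes 11 and 0, against 42.0% of all genes lower. *Ccr7*, a receptor for exit to the medulla, stood at 12.6 and 5.02 CPM against 70.5 and 17.6 CPM in ordinary-size cells, and the activation gene *Cd69* at 5.39 and 3.45 CPM against 33.8 and 32.3 CPM. This did not hold against every class for the summed lists in *Eif4g2* cKO. There the log2 ratio of the summed mature list was 0.41 over S-phase ordinary-size cells. That of the summed TCR-signalled list was 0.22 over mitotic ordinary-size cells. All 12 quiescence genes were lower, *Btg1* at 110 and 96.9 CPM against 621 and 493 CPM.

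Members with UMIs of both coreceptors differed from those with *Cd8* alone within each library. The split was made by *Cd4* UMIs, and given the *Cd4* background no stage was assigned from it. Split at 2 UMIs, the 91 WT and 159 *Eif4g2* cKO members with both had 5587 and 5868 CPM of ribosome biogenesis and 5615 and 4914 CPM of mitosis genes, and the 151 and 238 members with *Cd8* alone had 6980 and 7492 CPM of ribosome biogenesis and 3645 and 3533 CPM of mitosis genes. *Srm* stood at 102 and 153 CPM in the former and 169 and 255 CPM in the latter, and *Rag1* at 126 and 166 against 74.9 and 96.7 CPM. *Ptcra* was similar in the classes, at 74.2 and 66.0 against 60.8 and 69.0 CPM. The 15 WT and 21 *Eif4g2* cKO members with neither coreceptor at 2 UMIs had the most *Il2ra*, 144 and 115 CPM, and the most *Myc*, 131 and 105 CPM, among classes of more than 5 cells.

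Several measures bear on whether a barcode holds more than 1 cell. At 1000 UMIs per cell the members had fewer genes than ordinary-size cells, with medians of 588 against 666 in WT and 548 against 644 in *Eif4g2* cKO. Barcodes merged from a single bead made up 44.3% of WT members and 43.9% of WT ordinary-size cells, and 48.0% against 33.2% in *Eif4g2* cKO. Members with at least 2 UMIs of both an early gene (*Ptcra*, *Il2ra* or *Dtx1*) and a mature gene (*Ccr7*, *S1pr1* or *Ms4a4b*) numbered 9 of 262 in WT (3.44%, 1.58 to 6.42%) and 3 of 419 in *Eif4g2* cKO (0.716%, 0.148 to 2.08%). The same pair was seen in 3.53% and 1.12% of ordinary-size cells of at least 5000 UMIs, which have fewer UMIs than members, so depth was not equal. Mature genes at 2 UMIs were in 8.78% of WT and 3.34% of *Eif4g2* cKO members.

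Genes listed for other lineages were seen in many members, mostly through 1 or 2 genes of a list. At least 2 UMIs of the antigen-presenting list, part of which the choice of members limited, were in 77.9% of WT and 78.0% of *Eif4g2* cKO members. The shares were 45.5% and 51.4% in ordinary-size cells of at least 5000 UMIs, which have fewer UMIs than members, so depth was not equal. *Cst3* led that list (237 and 224 CPM in all, below 337 and 360 CPM in ordinary-size cells) with 146 and 149 CPM. The plasmacytoid dendritic list reached 2 UMIs in 63.4% and 62.5% of members, *Bst2* made up most of it, and its defining gene *Siglech* had 0 UMIs in the members of both libraries. The erythroid list reached 2 UMIs in 77.5% of WT and 2.86% of *Eif4g2* cKO members. For the fibroblast and endothelial list, led by *Pecam1*, the shares were 25.6% and 6.21%, the summed level was 61.3 and 19.8 CPM, and *Col1a1* and *Cdh5*, which define the 2 cell types, had 0 and 1 UMIs in WT and 1 and 0 in *Eif4g2* cKO. At least 2 UMIs of 6 B cell genes were seen in 3.05% and 5.25% of members, their summed level was 17.1 and 18.9 CPM, *Cd79b* made up most of it (14.8 and 17.9 CPM) and *Ms4a1* and *Pax5* had 0 UMIs in *Eif4g2* cKO. The 9 thymic epithelial genes summed to 17.7 and 14.1 CPM. Scrublet, run on each library with its default settings, marked 0 of 6014 and 0 of 4335 barcodes, so its calls were not used. Its score was above the 95th percentile of ordinary-size cells in 1.53% of WT and 8.59% of *Eif4g2* cKO members. The T cell receptor constant genes were not analysed here. How many members hold 2 cells was not determined.

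In *Eif4g2* cKO against WT large cells, the deleted gene comes first. *Eif4g2* stood at 199 CPM (interval 187 to 213) in WT and 198 CPM (188 to 209) in *Eif4g2* cKO large cells, a log2 ratio of −0.01 (−0.13 to 0.11). It was seen in 87.0% and 86.6% of members. In ordinary-size cells it stood at 231 and 321 CPM. The libraries read the 3′ ends of transcripts, which lie outside the loxP sites in the study's targeting scheme, so these counts do not check the deletion. *Eif4g1*, its relative, stood at 131 and 102 CPM.

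Most genes of the growth lists lay within 0.5 of each other in the 2 genotypes before centring. Of 8632 genes that reached 50 UMIs when the WT and *Eif4g2* cKO members were added up, 337 (3.9%) were higher in *Eif4g2* cKO large cells by more than 0.5 on the log2 scale and 2749 (31.8%) were lower, and the median gene was lower by 0.22. Without the 7 haemoglobin-rich barcodes 3.58% were higher and 32.9% lower. Centring on that median changed the counts to 950 (11.0%) and 1785 (20.7%). Against this background, 2 of 39 ribosome biogenesis genes were higher and 4 lower, with a median of −0.13 that turned to 0.09 after centring. Nucleotide and polyamine metabolism (2 of 26 higher, median 0.12), mitochondrial chaperones and import (0 of 17 in either direction, median 0.17) and cytosolic chaperones (0 of 15, median 0.01) stayed within 0.5 for nearly all members, and their medians were 0.35, 0.39 and 0.23 after centring. Glycolysis had the highest median of the growth lists, 0.28, with 2 of 12 genes higher and 3 lower, and 0.50 after centring.

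Single growth genes went both ways before centring, where the median gene stood at −0.22. *Npm1* was higher in *Eif4g2* cKO by 0.59 (0.54 to 0.63), *Fabp5* by 0.64 (0.53 to 0.74) and *Srm* by 0.52 (0.39 to 0.65). *Ncl* was at −0.35 (−0.40 to −0.30), *Gnl3* at −0.27 (−0.43 to −0.11), *Hsp90ab1* at −0.35 and *Myc* at −0.30 (−0.52 to −0.08). The intervals of *Gnl3* and *Myc* included the median gene. *Hspd1* (0.09), *Shmt2* (0.15) and *Dctpp1* (0.13) lay near 0 and above the median gene. In glycolysis *Tpi1* was at 0.66 and *Gapdh* at 0.38. In all ordinary-size cells the ratios of *Srm*, *Fabp5* and *Npm1* were 0.21, 0.87 and 0.63, and in their S-phase class −0.20, 0.24 and 0.42, and whether these differ from the ratios in large cells was not tested. Among initiation factors *Eif1*, which helps to select the start codon, was at 0.88 (0.83 to 0.94), with 780 and 1438 CPM, and *Eif5a* and *Eif4a1* were at 0.20 and 0.16.

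Cell cycle lists lay close together in the large cells of both genotypes. The DNA replication list had a median of −0.09, with 0 of 30 genes higher and 2 lower, and mitosis one of −0.13, with 0 of 25 higher and 3 lower. In ordinary-size cells as a whole 18 of 30 DNA replication genes were higher in *Eif4g2* cKO and 0 lower (median 0.63), where 6.79% of all genes were higher and 36.1% lower, beside the larger share of S-phase cells in that library. Replication-dependent histone transcripts stood apart. Of 56 with enough UMIs, 44 were lower in *Eif4g2* cKO and 0 higher (median −0.82), and they summed to 0.704% of UMIs in WT and 0.410% in *Eif4g2* cKO large cells. In the S-phase class of ordinary size 40 of 53 were lower, against 31.4% of all genes there. These mRNAs end in a stem-loop and mostly lack a poly(A) tail, so their capture depends on the library chemistry. Of 81 ribosomal protein genes 9 were higher and 0 lower (median 0.21).

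The stage genes are given by stage, beside 31.8% of all genes lower in *Eif4g2* cKO. Of the double-positive-stage genes *Cd4* (0.04), *Cd8a* (0.12) and *Cd8b1* (0.10) lay near 0, *Rag1* was at 0.44, *Rag2* was higher in *Eif4g2* cKO by 0.81 (0.48 to 1.14), and *Arpp21* was lower, at −1.19 (396 and 174 CPM). Of 9 TCR-signalled genes with enough UMIs 5 were lower and 0 higher, *Tox* at −1.25 (133 and 55.8 CPM) and *Ikzf2* at −0.71 (106 and 64.5 CPM), with a list median of −0.71. Of 7 mature genes 4 were lower and 0 higher, with a median of −0.95, among them the survival gene *Bcl2* at −1.26 (40.9 and 17.1 CPM) and *Ms4a4b* at −0.95. *Arpp21*, *Tox*, *Ikzf2* and *Bcl2* each span over 100 kb, a length class in which most genes were lower (below), and in ordinary-size cells their ratios were −1.28, −1.10, −0.74 and −1.07. Both lists kept this sign under the 18 alternatives tried, with ranges of −0.89 to −0.49 and −1.28 to −0.59. *Il7r*, the IL-7 receptor chain, stood at 19.8 and 9.33 CPM, *Stat5b* at 96.1 and 53.7 CPM and *Runx3* at 37.3 and 17.8 CPM. The cyclin *Ccnd2* stood at 93.7 and 47.5 CPM and *Ccnd3* at 651 and 610 CPM. In ordinary-size cells *Ccnd2* stood at 219 (WT) and 74.4 CPM (*Eif4g2* cKO) and *Ccnd3* at 1700 and 1346 CPM. More members carried a mature gene in the WT library (8.78% against 3.34%, above), and the part of those cells in the list medians was not tested.

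The other lists moved less or held few counted genes. Translation initiation had 2 of 24 genes higher and 3 lower (median 0.04), nutrient transport 1 and 3 of 11 (−0.22), lipid synthesis and binding 2 and 2 of 10 (0.07), quiescence 1 and 2 of 12 (−0.30), double-negative-stage genes 1 and 2 of 6 (−0.35), double-positive-stage genes 1 and 3 of 9 (0.09), and T lineage genes 0 and 1 of 6 (−0.13). In the Myc network 0 of 8 were past 0.5 (median 0.08). Of 12 mitochondrially encoded genes 1 was higher and 6 lower (−0.57). Innate-like T cell genes had 1 higher and 2 lower of 4 (−0.29), regulatory T cell genes 0 and 1 of 2 (−0.57), antigen-presenting genes 1 and 2 of 6 (0.05), plasmacytoid dendritic genes 0 and 1 of 2 (−0.55), thymic epithelial genes 0 and 1 of 2 (−0.49), the stress response 0 and 3 of 4 (−0.79), B cell genes 0 of 1 (0.28), and fibroblast and endothelial genes 0 and 1 of 1 (−1.64). All 5 erythroid and all 3 sex chromosome genes with enough UMIs were lower, as the first values above show.

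**Figure D5:**
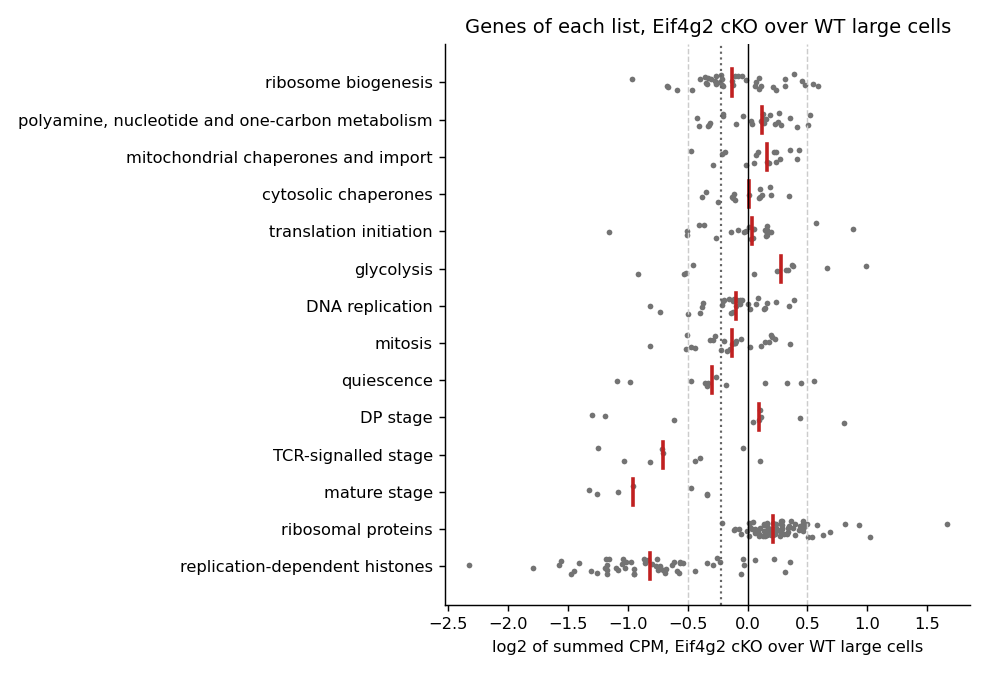
Each point is 1 gene, by its log2 ratio of summed CPM in Eif4g2 cKO over WT large cells; red bars are list medians, the dotted line is the median of all 8632 genes (−0.22) and the dashed lines mark 0.5 in each direction. Cell cycle lists and the growth lists other than nutrient transport centre between −0.13 and 0.28, mature-stage and histone genes at −0.95 and −0.82.

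At the ends of the range, the genes with the highest *Eif4g2* cKO over WT ratios included *Cenpv*, *Dapk3*, *Akirin2* and *Dynlt1b* and, at higher levels, *Rpl22l1* (a ribosomal protein paralogue, 281 and 889 CPM, 1.66), *Arf6* (a small GTPase, 36.4 and 113 CPM, 1.63), *Alyref* (mRNA export, 80.4 and 224 CPM, 1.48) and *Ptms* (63.6 and 164 CPM, 1.37). The lowest were haemoglobin and Y-linked genes, followed by *Dtx3l* (22.5 and 3.01 CPM, −2.90), *Inpp4b* (22.5 and 3.45 CPM, −2.70), *Atxn1* (47.2 and 8.04 CPM, −2.55) and *Ppp1r12b* (34.8 and 6.60 CPM, −2.40). Gene length moved with these ratios. Large-cell genes spanning up to 5 kb had a median log2 ratio of 0.07, those of 20 to 50 kb −0.26, and the 965 genes over 100 kb −0.90, of which 78.0% were lower by more than 0.5. The medians in ordinary-size S-phase cells were 0.05, −0.24 and −0.92. The median gene spans 0.539 kb among the histones, 11.7 kb in ribosome biogenesis, 21.2 kb in the TCR-signalled and 16.5 kb in the mature list. With 1 library per genotype, library and genotype cannot be told apart in this trend.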

How the data were processed

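Unsorted thymus cells of 1 WT and 1 *Eif4g2* cKO mouse were profiled with droplet 3′ single-cell RNA-seq (DNBelab C4). The deposited files hold UMI counts per gene and barcode, made by the authors with dnbc4tools (version 3.0 per the file headers, 2.1.3 in the series text); the submitters' processing notes name mm10, and the aligner is not given in the sources used here. The 2 libraries held 18355050 (WT) and 18056277 UMIs over 21926 genes, of which 21456 were placed by GENCODE M21 identifiers.

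Counts were summed over the barcodes of each class, divided by the class total to give CPM and given exact Poisson intervals; the ratio of 2 sums had an exact conditional binomial interval and shares had Clopper-Pearson intervals (95%, counting error only). Genes needed 50 UMIs, and a log2 ratio past 0.5 was counted as higher or lower. With 1 library per genotype no test was made. Cells were thinned at random to 1000 or 10000 UMIs where shares were compared. No filter beyond the rule was set on cells, and no doublets were removed; Scrublet (in scanpy 1.11.5) made no calls. Python 3.11.15, numpy 2.4.6, scipy 1.17.1 and pandas 2.3.3 were used, and the ratio and its interval were tested on simulated data.

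The members and the gene lists were chosen with earlier results of these data known. Genes named were the 6 markers, the 4 most abundant of each list, stage and cytokine-signalling genes, *Eif4g2*, *Eif4g1* and *Myc*, and the 10 at each end of both ratios with at least 100 UMIs. The T cell receptor constant genes were not analysed here, and 1 stage gene is not reported here. Alternatives changed the UMI threshold, the limit on antigen-presenting genes, the minimum UMIs, scaling, weighting of cells and the comparison class.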

Additional observations from a re-analysis of the deposited data

Results flagged for a closer look

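The Myc network list had a median log2 ratio of *Eif4g2* cKO over WT of 0.081 in large cells and −0.45 in ordinary-size cells, and the DNA replication list one of −0.093 in large cells and 0.63 in ordinary-size cells. The signs were opposite in the 2 kinds of cell, and the difference was not tested. The DNA replication median in large cells turned to 0.13 when centred on the median gene and to 0.020 when scaled without ribosomal protein, mitochondrial and histone genes. The Y-linked genes *Eif2s3y* and *Uty* had 115 and 108 UMIs in the WT members and 0 in the *Eif4g2* cKO members, although the labels call both mice female. At least 1% haemoglobin UMIs were found in 7 WT members and in 0 of 419 *Eif4g2* cKO members.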

How the results depend on the processing

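No paired analysis was possible because there was 1 library per genotype, and no replicate could be left out. Of 152 alternatives of the main values 115 stayed within the spread set for them and 37 moved; the cause was not tested. The shares of large cells in WT and *Eif4g2* cKO were 6.47% and 12.9% at 8000 UMIs, 3.18% and 7.38% at 12000, 2.145% and 4.64% at 15000, and 7.98% and 11.9% at 4 times the library median. *Cd4* with *Cd8* fell to 34.7% and 37.9% of members with 2 UMIs required, and to 51.9% and 52.5% after thinning to 10000 UMIs, from 62.2% and 64.4%. Genes higher in *Eif4g2* cKO were 0.452% and genes lower 10.8% at a size of 1, genes higher 6.89% with at least 1 UMI in each library and 6.38% when scaled without ribosomal protein, mitochondrial and histone genes, and higher and lower genes 11.0% and 20.7% when centred. Centring moved the medians of ribosome biogenesis to 0.088, DNA replication to 0.13 and mitosis to 0.093, and the other scaling moved DNA replication to 0.020. The median of all genes was −0.24 with at least 20 UMIs, −0.19 with 100, −0.28 with at least 1 UMI in each library, 0.00 centred, −0.11 with the other scaling, −0.20 thinned, −0.19 with 1 bead and −0.24 without the haemoglobin-rich barcodes. Leaving those barcodes out, and using S-phase members only, were chosen after seeing the data. *Xcl1* (−1.74) and *C77080* (−0.22) changed sign with members of 1 bead, and *Tyrobp* at 15000 UMIs (−0.0016) and in S-phase members (−1.10). Higher genes in large over ordinary-size cells were 3.06% against S-phase, 10.4% against mitotic, 14.1% against resting cells, 13.4% against 1000 to 2000 UMIs and 2.98% against 5000 to 10000 UMIs; lower genes were 10.4% and 13.1% against S-phase and 5000 to 10000 UMIs. Log2 ratios of summed lists, large over ordinary-size cells, also changed sign against some classes. Against S-phase cells these were DNA replication (−0.52 in WT, −0.56 in *Eif4g2* cKO), mature stage (0.41, *Eif4g2* cKO), thymic epithelial (0.061, WT) and erythroid genes (0.67, *Eif4g2* cKO). Against mitotic cells these were mitosis (−1.81) and the stress response (0.074) in WT, and TCR-signalled stage (0.22), B cell (0.23) and erythroid genes (0.70) in *Eif4g2* cKO. Against 5000 to 10000 UMIs it was mitosis (−0.24, WT).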

Other observations

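Some large cells were rich in *Gzma*. Members with at least 10 UMIs of the innate-like T cell list per 10000, a limit set after the values were seen, numbered 32 of 262 in WT (12.2%) and 25 of 419 in *Eif4g2* cKO (5.97%), and 24 and 22 members lay near the limit. *Gzma* (granzyme A) stood at 1582 and 1607 CPM in them against 250 and 197 CPM in the other members (without the haemoglobin-rich barcodes), and *Nkg7*, a cytotoxic granule gene, at 108 and 72.7 CPM against 28.8 and 16.6 CPM. The other genes of the list were low or uneven, *Il2rb* at 14.7 and 38.5 CPM against 5.59 and 4.31, *Zbtb16* at 14.7 and 2.14 CPM against 1.33 and 0.923, and *Xcl1* at 0 and 79.1 CPM against 3.73 and 0.769. The class was cut from these genes, so their levels are a description. Ribosome biogenesis made up a median of 76.6 and 79.5 UMIs per 10000 in them, against 59.3 and 62.1 in the others, and mitosis genes 22.8 and 17.9 against 37.1 and 36.1.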
